A study of Homo sapiens with 10 samples.

Results

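Oxidative phosphorylation is carried out in the inner mitochondrial membrane by 4 electron transfer complexes and by ATP synthase, called complex V. Complexes I and II pass electrons from NADH and from succinate to ubiquinone, complex III passes them on to cytochrome c, and complex IV passes them to oxygen. Complexes I, III and IV pump protons, and ATP synthase lets them flow back through its membrane part, FO, to drive ATP formation in its catalytic part, F1. The nuclear genes of these complexes were followed here during differentiation of human embryonic stem cells (hESCs) into hepatocyte-like cells. Hepatocytes are known as cells rich in mitochondria, and pluripotent cells as cells that rely largely on glycolysis. The genes were chosen by name, as those that begin with the NDUFA, NDUFB, NDUFC, NDUFS or NDUFV prefix and a number, with UQCR, with COX4 to COX8 or with ATP5, and SDHA to SDHD, and 78 of the 12125 genes in the table matched. Of these, 73 encode subunits, namely 35 of complex I, 4 of complex II, 8 of complex III, 11 of complex IV and 15 of complex V. The other 5 were COX7A2L, a factor of respiratory supercomplexes, the genes COX4NB and ATP5SL, which are not subunits, and the readthrough transcripts ATP5J2-PTCD1 and NDUFC2-KCTD14. NDUFA4 carries a complex I name but was counted with complex IV, where the protein is known to sit.

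RNA of H1 cells, an established hESC line kept on Matrigel in mTeSR1 medium, was sequenced at 10 time points, with 1 library per day. Day 0 was undifferentiated. Days 1, 2 and 3 had 100 ng/ml Activin A, days 5 and 7 had 30 ng/ml FGF4 with 20 ng/ml BMP2, days 9 and 11 had 20 ng/ml each of HGF and KGF, and days 13 and 21 were labelled as treated with 20 ng/ml Oncostatin M. By the stage lengths of the protocol, day 13 is also the last day of the HGF and KGF stage. Basal medium changed with the stage as well, from RPMI with insulin-free B27 to RPMI with complete B27 and then to a hepatocyte medium, so medium, factor and age of the culture cannot be told apart.

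The deposited values are whole numbers that had been normalised for GC content and fitted to nearly the same distribution in every library, with totals between 2330948 and 2362740 and medians of 81 or 82. A value is therefore a relative position within its library, the table does not show the depth of each library, and total RNA per cell is not measured. A change is given as the difference of log2(value + 1) between 2 days, a scale that understates changes of low genes, and a gene was called higher or lower when this difference was at least 1 (2-fold) and the larger value was at least 50. With 1 library per day there is no replicate and no test. As a rough measure of error the pair of days 9 and 11 was taken, which shared a medium. Days 1, 2 and 3 and days 5 and 7 shared a medium too. Values of different genes are not compared, because whether they were scaled to length is not given. The stage markers followed the labels: the summed values of 5 pluripotency markers went from 11089 at day 0 to 94 at day 21, those of 5 hepatocyte markers from 27 to 49200. Markers of other cells also moved with time. The 5 stromal markers summed to between 150 and 565 up to day 5 and to between 4190 and 20361 from day 7, the 5 of red cell precursors to at most 23 and then up to 4254. Of 5 macrophage and 5 muscle markers, 2 each were analysed here, with sums of at most 39 and 263 up to day 5 and of up to 324 and 2476 from day 7. PTPRC was at 0 from day 3 to day 13. The 2 muscle markers went opposite ways: ACTC1 reached 2434 at day 9, while MYL7 was highest at day 3, at 169, and was at 3 on day 21. The rise of the muscle sum is thus that of ACTC1 alone. In bulk samples, fewer cells of a type and less RNA per cell cannot be told apart, and the part of these cells in the changes below was not tested.

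The promoters of 3 genes show the range of the group: SDHA, the one member with its highest value at day 21, and 2 genes with large falls, NDUFB4 and ATP5G1. The sequences are the 250 bases before the RefSeq start in build GRCh38.p14, read 5′ to 3′ on the strand of the gene. Capitals mark GCGCANGCG, the core of the motif of NRF1, a transcription factor known for its sites in respiratory genes, searched on both strands.
SDHA: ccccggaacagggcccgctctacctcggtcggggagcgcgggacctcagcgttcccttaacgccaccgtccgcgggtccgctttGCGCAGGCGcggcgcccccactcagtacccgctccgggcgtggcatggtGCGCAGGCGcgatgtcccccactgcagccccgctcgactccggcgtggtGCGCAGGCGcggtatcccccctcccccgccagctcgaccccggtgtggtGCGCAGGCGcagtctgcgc
NDUFB4: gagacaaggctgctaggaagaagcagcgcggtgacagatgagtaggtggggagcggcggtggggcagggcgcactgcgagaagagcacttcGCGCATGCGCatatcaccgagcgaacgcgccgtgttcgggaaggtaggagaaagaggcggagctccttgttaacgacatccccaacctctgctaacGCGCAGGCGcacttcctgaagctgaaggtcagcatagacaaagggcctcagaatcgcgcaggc
ATP5G1: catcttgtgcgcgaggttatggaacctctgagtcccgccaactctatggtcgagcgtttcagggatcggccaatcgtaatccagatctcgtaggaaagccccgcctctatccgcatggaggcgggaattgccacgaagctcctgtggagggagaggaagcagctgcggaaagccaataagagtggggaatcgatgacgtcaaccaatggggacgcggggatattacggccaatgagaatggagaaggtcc
The SDHA stretch (chr5:218070-218319, plus strand) held 4 matches, each with the same 9 letters. The NDUFB4 stretch (chr3:120596086-120596335, plus strand) held 3 matches, of which a pair on opposite strands overlap in a single palindrome and count 1 each. The ATP5G1 stretch (chr17:48892537-48892786, plus strand) held none. So these letters stood both before the gene that was highest at day 21 and before a gene that was 3.60-fold lower.

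For 61 of the 73 subunit genes a promoter of 300 bases, 50 of them after the start, was found in the RefSeq table, by current or older symbol. The NRF1 letters stood in 19 of these 61 (31.1%) and in 7.79% of all 27305 promoters of that length. At least 3 matches were found in 4 subunit promoters, those of SDHA, NDUFB4, NDUFA8 and ATP5I, and in 0.63% of all promoters. CCGGAAG, a core of the sites of GABP, also stood in 19 of 61 (31.1%, against 10.6% of all), and AAGATGGCG, a core of YY1 sites, in 8 (13.1%, against 1.81%). Between the first and the last library the 19 genes with NRF1 letters changed by a median of -0.86 (quartiles -1.02 and -0.48) and the 42 without by -0.55 (quartiles -1.04 and -0.28), so the ranges overlapped over most of their width. With and without GABP letters the medians were -0.64 and -0.63, and with and without YY1 letters -0.49 and -0.64, so the order was not shared by the 3 motifs. The letters are a description and not a site, and the NRF1 core was chosen after the SDHA promoter had been seen.

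Most subunit genes were lower in hepatocyte-like cells than in hESCs, by a modest amount. From day 0 to day 21 the median change of the 78 members was -0.65, a ratio of 0.64, against -0.12, a ratio of 0.92, for all genes. 72 of 78 members (92.3%) were lower by any amount, where 53.4% of all genes were. Of the 76 members with a larger value of at least 50, 22 were at least 2-fold lower, a share of 28.9% that lay near the 26.5% of all tested genes. None was at least 2-fold higher, where 23.9% of all tested genes were. The group therefore stood apart from the table in its shared direction and in the lack of rises, and not in the number of large falls. Scaling the libraries by the median of ratios moved all genes up by 0.19 over this span, and then the median of the members was -0.46, 65 of 78 were lower, 14 were 2-fold lower, and SDHA passed 2-fold higher.

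**Figure D1:**
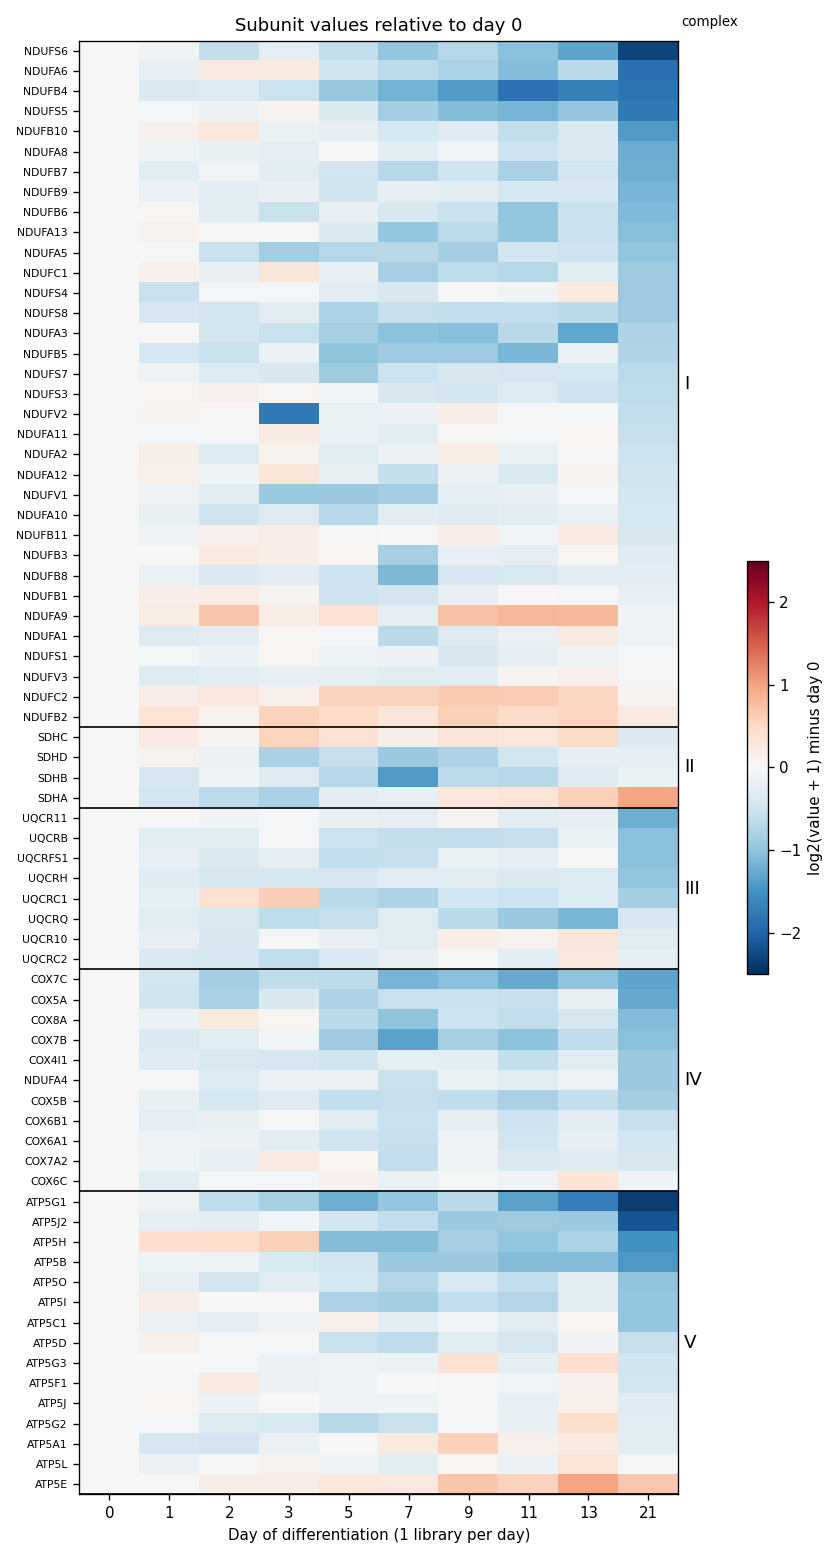
Heat map of 72 of the 73 subunit genes (rows, grouped by complex and ordered by their change at day 21) over the 10 days (columns), where colour is log2(value + 1) minus that of day 0. The day 21 column is blue in most rows, SDHA and ATP5E have the strongest red there, and NDUFV2 has its darkest blue cell at day 3.

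Little of this had happened by definitive endoderm. From day 0 to day 3 the members changed by a median of -0.12, against -0.04 for all genes, and 50 of 78 were lower, where 51.4% of all genes were. At this point 0 of 76 members were 2-fold higher, beside 11.1% of all tested genes, and 1 was 2-fold lower, beside 9.07%. That gene was NDUFV2, a subunit of the NADH-oxidising module of complex I, named after its values were seen. Its values, here and below in order of time from the undifferentiated cells to the last library, were 159, 166, 159, 46, 142, 144, 178, 154, 153 and 104. It was thus low in the day 3 library alone, between 159 at day 2 and 142 at day 5, and no other subunit gene showed a dip of this size. Every count that follows a change from day 3 for this gene rests on that library.

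From day 3 to day 13 the members had no shared direction. Their median change was -0.06, against -0.08 for all genes, and 42 of 78 were lower, beside 53% of all genes. SDHA and NDUFV2 were 2-fold higher, 2 of 76 members beside 16.5% of tested genes. ATP5H, NDUFB4, NDUFS5 and NDUFS6 were 2-fold lower, 4 of 76 beside 15.9%. These 6 genes are named after their values were seen. Fewer members than genes in general thus passed 2-fold in either direction. The median was lowest at day 7 within this span. Relative to day 0 it was -0.36 and -0.55 with FGF4 and BMP2 (days 5 and 7), -0.29 and -0.38 with HGF and KGF (days 9 and 11), and -0.20 on day 13.

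Of the spans from day 0 to 3, 3 to 13 and 13 to 21, the last had the largest common change. Relative to day 0 the median had already been -0.55 at day 7, and it was -0.20 at day 13, where this span starts. From day 13 to day 21 the members changed by a median of -0.52, against -0.10 for all genes, and 71 of 78 (91.0%) were lower, where 54.2% of all genes were. Of 74 members with a larger value of at least 50, 8 were 2-fold lower (10.8%, beside 9.08% of tested genes) and 0 were 2-fold higher, beside 8.57%. The 8 were NDUFA6, NDUFB10, NDUFS4 and NDUFS6 of complex I, UQCRFS1 of complex III, COX5A of complex IV and ATP5C1 and ATP5J2 of ATP synthase. Of the 22 members that were 2-fold lower at day 21 than at day 0, 5 were already so at day 13: ATP5B, ATP5G1, COX7C, NDUFB4 and NDUFS6. At day 13, 7 of 76 members were 2-fold lower than at day 0, beside 20.3% of tested genes. The step also depends on which late library is set against day 21, since from day 11 to day 21 the median was -0.28.

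The pair of days 9 and 11 gives 1 example of a common shift within a single medium. Between them the members changed by a median of -0.11 where all genes changed by 0.00, and 59 of 78 members were lower, beside 49.3% of all genes. None of 75 members was 2-fold higher (1.04% of tested genes were) or 2-fold lower (0.568%). The standard deviation of the members' differences was 0.21. From day 7 to day 9 the median was 0.22 and from day 11 to day 13 it was 0.19, with the median of all genes at 0.00 both times. Within another single medium, the median relative to day 0 was -0.36 at day 5 and -0.55 at day 7. Steps between neighbouring libraries thus went in both directions. The changes of -0.52 and -0.65 were larger in size than these steps, but they span more days. The -0.28 from day 11 to day 21 was close in size to the steps of 0.22 and 0.19.

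Transcript length moved with the result as well. By GENCODE release 29 the median length of the members was 714 bases, and 60 of 78 were shorter than 1000 bases. From day 0 to day 21, other genes with a mean value of at least 50 changed by a median of -0.26 when shorter than 1000 bases and by -0.05 when longer. The 60 short members changed by -0.70 and the 18 longer ones by -0.65. Over this span the fall was thus about the same in long as in short members. From day 13 to day 21 the short members changed by -0.50 and the longer ones by -0.56. In other spans they differed more, with -0.15 and -0.02 from day 0 to 3, -0.09 and 0.03 from day 3 to 13, and -0.16 and -0.05 from day 9 to 11. A part of length in the changes was not tested.

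Over the 10 days, 29 members had their highest value at day 0, where 16.7% of all genes did, and 43 had their lowest at day 21, where 27.4% did. SDHA alone was highest at day 21, beside 18.6% of all genes. The members varied less over time than all genes with a mean of at least 50, which were not matched to them in level. The median standard deviation of log2 values over the days was 0.31 in the 76 members with a mean of at least 50 and 0.48 in all 8518 such genes. The difference between the highest and the lowest day stayed under 2-fold in 36 of these members (47.4%) and in 24.9% of those genes.

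The median fall was smallest in complex II and largest in complexes III and IV. Over the whole course the median change was -0.65 in complex I (quartiles -1.09 and -0.36), -0.20 in complex II (-0.28 and 0.13), -0.92 in complex III (-1.04 and -0.39), -0.92 in complex IV (-1.07 and -0.52) and -0.57 in complex V (-1.22 and -0.32). The quartile ranges of complexes I, III, IV and V overlapped, and that of complex II, with 4 genes, lay above the rest. The means were -0.76, 0.05, -0.77, -0.82 and -0.82 in the same order, so by the mean complexes I, III, IV and V lay close together. The genes that were 2-fold lower were 10 of 35 in complex I, 0 of 4 in complex II, 3 of 8 in complex III, 4 of 11 in complex IV and 5 of 15 in complex V, beside 26.5% of all tested genes. These shares lay near or modestly above that of the table, or rest on few genes, so the counts do not set the complexes apart. From day 13 to day 21 the medians were -0.50, 0.06, -0.62, -0.42 and -0.64 in the same order. In that step all 11 genes of complex IV and all 15 of complex V were lower, 32 of 35 of complex I, 7 of 8 of complex III and 2 of 4 of complex II. Members of 1 complex are not replicates of it, and no test was made.

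**Figure D2:**
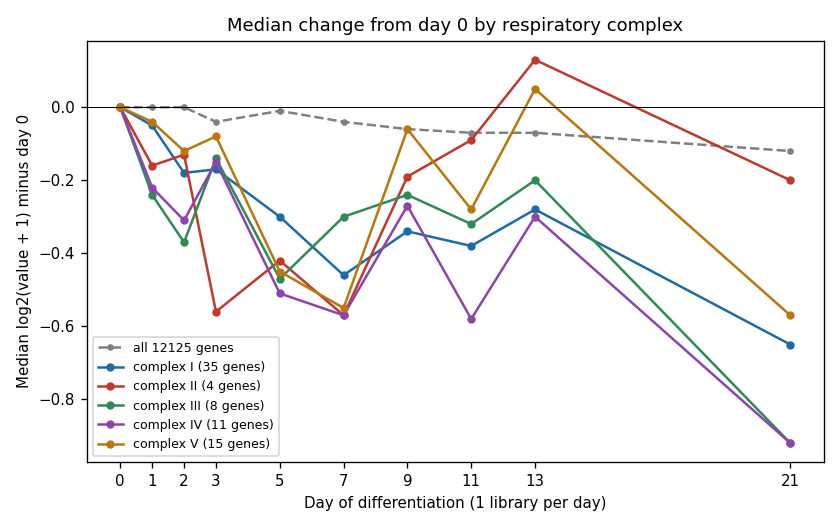
Median log2(value + 1) minus day 0 (vertical axis) of each complex and of all genes (dashed) over the day of differentiation (horizontal axis), with 1 library per day. Complexes III and IV end at -0.92 and complex II at -0.20, while all genes end at -0.12.

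**Figure D3:**
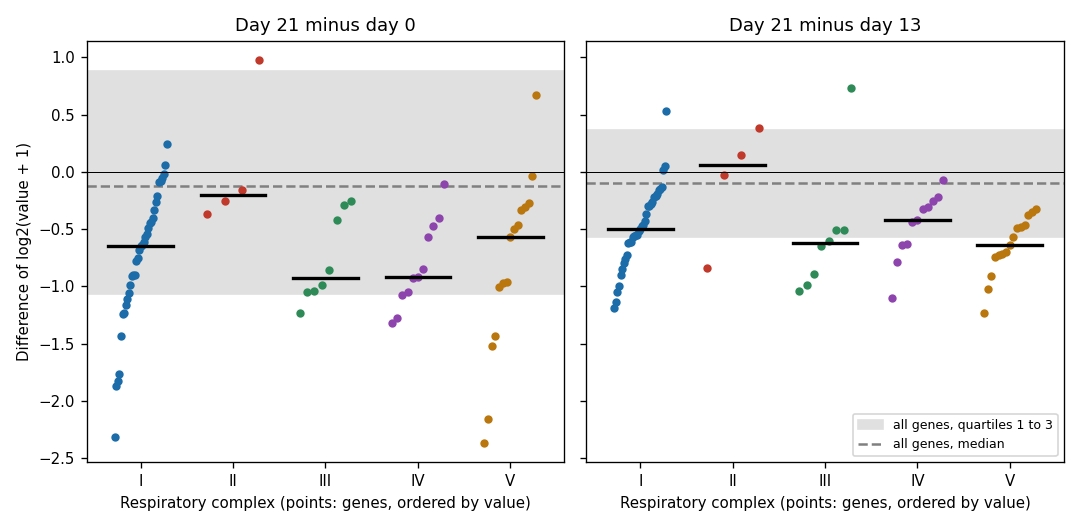
Difference of log2(value + 1) for each subunit gene (points) by complex, from day 0 to day 21 (left) and from day 13 to day 21 (right), with the median of each complex as a bar. The grey band is the range between quartiles 1 and 3 of all 12125 genes, and the medians of complexes I, III, IV and V lie below the dashed median of all genes in both panels.

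Pooled over the complexes, courses were no more alike within a complex than between complexes, while those of complex IV were more alike. Over the 10 days the median Pearson r was 0.41 for the 789 pairs from the same complex and 0.43 for the 1839 pairs from different complexes, where it was 0.01 over all pairs of genes with a mean of at least 50. Without day 21 both medians of the subunits were 0.33. Within complexes the median r was 0.65 in complex IV, 0.46 in complex V, 0.39 in complex I, 0.31 in complex III and -0.10 in complex II. Complex I gave 595 of the 789 pairs, so the pooled value mostly reflects it. Without day 21 complex IV had 0.56, and complexes I, II, III and V had 0.31, -0.02, 0.30 and 0.24. These values share the same 10 libraries and are a description.

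Complex I, the NADH dehydrogenase, has a peripheral arm that oxidises NADH (N module) and reduces ubiquinone (Q module), and a membrane arm that pumps protons (P module). Over the whole course the median change was -0.54 in the 9 genes of the N module, -0.67 in the 6 of the Q module and -0.76 in the 20 of the P module. The 2-fold lower genes were 2 of 9, 0 of 6 and 8 of 20, beside 26.5% of all tested genes. The 6 Q module genes, which include the core subunits NDUFS3, NDUFS7 and NDUFS8, ranged from -0.99 to -0.09. The largest fall was that of NDUFS6, a zinc-binding N module subunit (ENSG00000145494, chromosome 5, 1801514 to 1816719 in the coordinates of the table, whose build is not stated), with values over the 10 days of 214, 201, 142, 184, 140, 109, 130, 103, 85 and 42. The day 21 value was 5.10-fold below day 0. The fall was interrupted by rises from 142 at day 2 to 184 at day 3 and from 109 at day 7 to 130 at day 9. NDUFA6, an accessory subunit, had 178, 155, 208, 211, 126, 112, 103, 84, 111 and 48, and was 3.71-fold lower at day 21, after its highest value at day 3. The largest rises in the complex were small. NDUFB2, in the membrane arm, had 86, 110, 92, 128, 120, 106, 131, 121, 126 and 102 (change 0.24), and NDUFC2, of the same arm, had 136, 152, 165, 148, 204, 202, 214, 211, 196 and 142 (change 0.06). Both were highest at day 9. NDUFC2 overlaps the readthrough transcript NDUFC2-KCTD14, which had 34, 50, 36, 0, 4, 5, 9, 9, 3 and 18, so their reads may have been divided between them, and the sum of both was 170 at day 0, 148 at day 3 and 160 at day 21. NDUFB2 was above its day 0 value in every later library, and so was NDUFC2 taken alone, but its sum with the readthrough was not. NDUFS1 and NDUFV1, of the catalytic core of the N module, changed by -0.05 and -0.45.

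Complex II, succinate dehydrogenase, also works in the citric acid cycle and is the one complex with all its subunits encoded in the nucleus. SDHA, the flavoprotein that binds succinate (ENSG00000073578, chromosome 5, 218356 to 256815), had 214, 155, 136, 122, 178, 185, 260, 273, 326 and 424. It had its lowest value at day 3 and then was higher in each later library than in the one before, to 3.48 times the day 3 value and 1.98 times the day 0 value. SDHB, the iron-sulfur subunit, had 132, 99, 123, 106, 80, 49, 83, 80, 106 and 118, with its lowest value at day 7. SDHC and SDHD anchor the enzyme in the membrane. SDHC had 172, 198, 181, 252, 220, 191, 214, 209, 239 and 133, highest at day 3 and lowest at day 21. SDHD had 165, 176, 148, 94, 111, 86, 96, 120, 142 and 139, lowest at day 7. The 4 subunits thus shared no course. SDHA and SDHC went in opposite directions after day 13 (changes of 0.38 and -0.84), and SDHB and SDHD came back to within 0.16 and 0.25 of day 0. GENCODE names 4 pseudogenes of SDHA, and the estimates come from RSEM, which divides reads that match several transcripts by their estimated abundance, so the share of such reads in its value is not known here. Such copies are common in the group, since 48 of the 73 subunit genes have at least 1 named pseudogene.

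**Figure D4:**
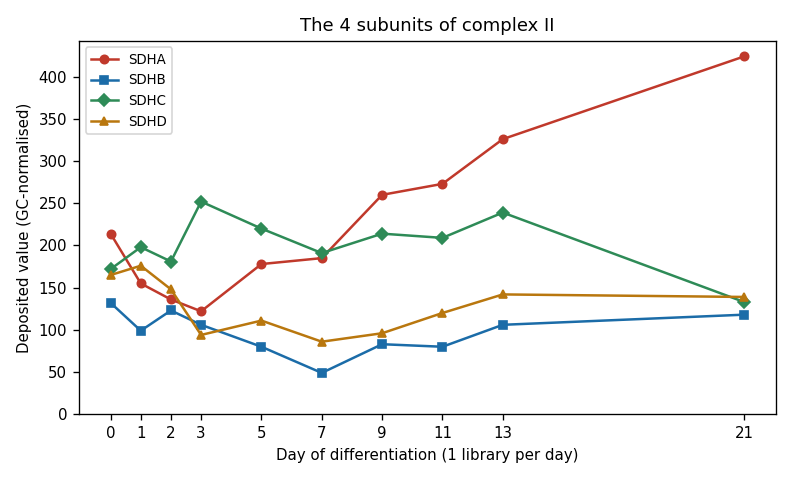
Deposited GC-normalised values (vertical axis, from 0) of the 4 complex II genes by day (horizontal axis), with 1 library per point. SDHA climbs from 122 at day 3 to 424 at day 21, while SDHB, SDHC and SDHD end between 118 and 139.

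Complex III, the cytochrome bc1 complex, was lower at day 21 in all 8 genes, with changes between -1.23 and -0.25. UQCR11, a small subunit, had 128, 128, 121, 123, 113, 108, 135, 106, 108 and 54, and UQCRB, which takes part in ubiquinone binding, had 431, 360, 351, 415, 298, 284, 280, 288, 386 and 208. UQCR11 stayed between 106 and 135 up to day 13, and the fall of 2.37-fold came at day 21 only. UQCRH, the hinge protein that helps cytochrome c to dock, had 613, 492, 450, 457, 460, 498, 494, 474, 484 and 308, a change of -0.99 that also came mainly in the last step. UQCRC1, a core protein named here after its values were seen, stood at 686 at day 3 and at 282 at day 5, a 2.43-fold drop between neighbouring libraries. ATP5H of ATP synthase went from 500 to 155 in the same step, 3.23-fold. No other member had a 2-fold fall between days 3 and 5. The share of all genes with such a fall in this step is not given here, so these falls are a description only.

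Complex IV, cytochrome c oxidase, was lower at day 21 in all 11 genes, between -1.32 and -0.11. COX7C had 902, 650, 501, 582, 576, 404, 434, 374, 450 and 360, and COX5A had 346, 244, 196, 262, 202, 235, 234, 231, 305 and 142. Both were lower by day 2, COX7C at 501 and COX5A at 196, and both were lowest at day 21, with COX5A at 305 on day 13 in between. The other genes that have a paralog were lower at day 21 as well. COX4I1, the form of subunit 4 found in most tissues, had 590, 474, 454, 434, 419, 504, 489, 384, 480 and 310 (change -0.93). COX6A1, the non-muscle form of subunit 6A, had 378, 344, 342, 310, 266, 254, 345, 275, 318 and 272 (-0.47). COX6B1, which faces the intermembrane space, had 258, 221, 228, 261, 210, 174, 221, 179, 214 and 173 (-0.57). All 3 were highest at day 0 or within 3 of that value. COX7A2, the non-muscle form of subunit 7A, had 174, 162, 150, 203, 180, 114, 162, 136, 139 and 132 (-0.40). COX7B had 192, 148, 155, 182, 103, 75, 108, 94, 123 and 92 (-1.05), with its lowest value at day 7. COX8A, the ubiquitous form of subunit 8, had 250, 225, 298, 258, 156, 124, 172, 163, 184 and 118 (-1.08). Of these, COX7A2 and COX8A had maxima at days 3 and 2. NDUFA4 had 518, 514, 407, 466, 470, 353, 463, 418, 474 and 273 (-0.92), and the supercomplex factor COX7A2L, which is related to COX7A2 but is not a subunit of the enzyme, had 192, 162, 169, 209, 176, 184, 180, 156, 216 and 210 (0.13). COX7A2L was thus highest at days 13 and 21 within a range of 156 to 216, whereas NDUFA4 was lowest at day 21. The other 8 paralogs, such as COX4I2 and COX7A1, were not analysed here.

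ATP synthase showed the widest spread among its own subunits, from -2.37 to 0.67. By day 21 the 5 genes of F1 had a median change from hESCs of -0.57 and the 10 of FO and the stalk one of -0.73. Subunit c, which forms the rotating ring of FO, is encoded by 3 genes, ATP5G1, ATP5G2 and ATP5G3, whose mature proteins are known to be identical and which differ in the import peptide. ATP5G1 (ENSG00000159199, chromosome 17, 46970127 to 46973233) had 128, 120, 82, 72, 54, 65, 80, 50, 38 and 24. ATP5G2 had 804, 790, 634, 620, 496, 550, 790, 704, 1087 and 650. ATP5G3 had 704, 696, 684, 634, 642, 634, 919, 598, 936 and 497. The ATP5G1 value was 5.33-fold lower at day 21 than at day 0, a change of -2.37, while ATP5G2 and ATP5G3 changed by -0.31 and -0.50 and had their highest values at day 13. From day 3 to day 13 ATP5G1 changed by -0.90, ATP5G2 by 0.81 and ATP5G3 by 0.56. All 3 were lower at day 21 than at day 13. GENCODE names 8 pseudogenes of ATP5G1 and 5 of ATP5G2.

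**Figure D5:**
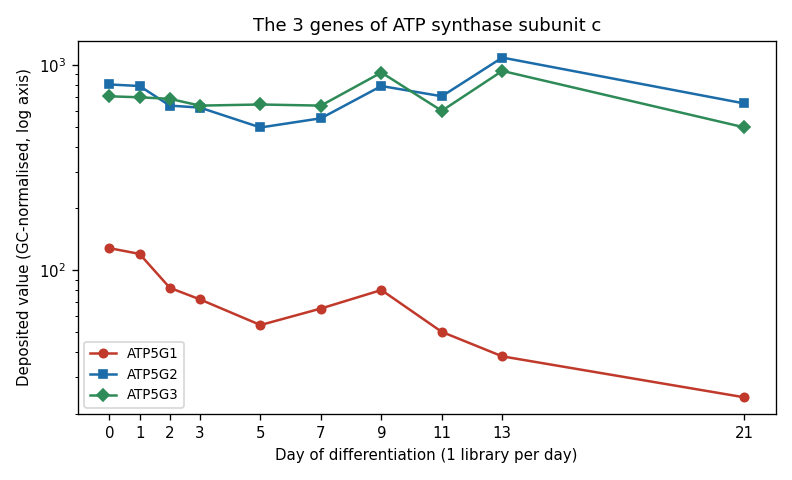
Deposited GC-normalised values (vertical axis, logarithmic) of the 3 genes of ATP synthase subunit c by day (horizontal axis), with 1 library per point. ATP5G1 goes from 128 to 24, while ATP5G2 and ATP5G3 peak at 1087 and 936 at day 13.

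ATP5J2, subunit f in the membrane part, had 316, 269, 259, 303, 231, 207, 166, 171, 166 and 70, 4.51-fold lower at day 21, and it overlaps the readthrough transcript ATP5J2-PTCD1, whose values stayed between 6 and 36, so that their reads may have been divided between them. ATP5E, the epsilon subunit of F1, was the main exception in this complex. It had 224, 224, 249, 251, 268, 265, 364, 334, 446 and 356, a change of 0.67, and was highest at day 13. It was equal to day 0 at day 1 and above it in all later libraries. The catalytic F1 subunits went separate ways, and they are named after their values were seen. ATP5B, the beta subunit, had 2641, 2434, 2434, 2026, 1892, 1388, 1388, 1251, 1251 and 982, and ATP5A1, the alpha subunit, had 1734, 1278, 1250, 1555, 1734, 2022, 2638, 1888, 2022 and 1435. ATP5B was never higher than in the library before, with a change of -1.43, and ATP5A1 was highest at day 9 and changed by -0.27. The 10 highest levels shared by all libraries, a number chosen here, began at 2164, and 4 values of these 2 genes lay there. Lower values repeated as well, such as 1388 and 1251 in ATP5B and 2022 and 1734 in ATP5A1. Differences among the high values of both genes are therefore coarse.

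Other genes of respiration were lower too. The 6 subunit or carrier genes outside the name rule changed by a median of -0.93 from day 0 to day 21, with 3 of 6 at least 2-fold lower, beside 26.5% of all tested genes lower and 23.9% higher over this span, shares that hold for each list below. Among them CYCS, cytochrome c itself, had 488, 550, 545, 366, 219, 258, 150, 137, 115 and 90, and CYC1, the cytochrome c1 of complex III, had 400, 298, 253, 269, 247, 193, 205, 201, 200 and 126. ATPIF1, the inhibitor of ATP synthase, was 180 at day 0 and 182 at day 21. The 37 assembly factors changed by a median of -0.71, and 9 of the 25 with a larger value of at least 50 were 2-fold lower and 0 higher. NDUFAF4, for complex I, went from 52 to 7, and LRPPRC, which stabilises mitochondrial messenger RNA, from 838 to 186, while COX14 and COX18, for complex IV, went from 46 to 80 and from 54 to 65. The 12 regulators of mitochondrial biogenesis changed by a median of -1.03, with 5 of 9 at least 2-fold lower. TFAM, which packages and transcribes mitochondrial DNA, had 232, 266, 204, 176, 131, 142, 157, 104, 114 and 35, and C10orf2, the helicase Twinkle, had 112, 98, 88, 53, 42, 61, 41, 37, 30 and 16. The largest step of TFAM between neighbouring libraries was that from day 13 to day 21 (-1.68), which is also the longest interval. The 14 outer membrane, import and inner membrane genes changed by -1.27, with 8 of 14 at least 2-fold lower, among them HSPD1, a matrix chaperonin, from 3862 to 446, and TIMM23, an import channel, from 173 to 50. The 13 genes of mitochondrial DNA were not analysed here.

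The citric acid cycle did not move as 1 group. Its 13 enzymes changed by a median of -0.52 from day 0 to day 21, with 3 at least 2-fold lower (23.1%, beside 26.5% of all tested genes) and 1 higher (7.69%, beside 23.9%). SUCLG1, the alpha subunit of succinyl-CoA ligase, which makes the succinate that SDHA oxidises, had 47, 108, 118, 92, 96, 162, 261, 246, 305 and 312. SUCLA2, the beta subunit of the ATP-forming enzyme, had 355, 220, 215, 203, 132, 88, 96, 94, 112 and 52. SUCLG1 was thus 6.64-fold higher at day 21 and SUCLA2 6.83-fold lower, although both belong to 1 enzyme. SUCLG2, the beta subunit of the GTP-forming enzyme and named after its values were seen, had 205, 158, 91, 114, 56, 91, 116, 114, 149 and 162, lowest at day 5 and close to day 0 again at the end. MDH2, malate dehydrogenase, went from 634 to 234.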

How the data were processed

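RNA was taken from H1 hESCs and their derivatives on 10 days, and libraries were made with the TruSeq kit and sequenced on a MiSeq, with 1 library per day. Per the methods and the submitters' processing notes, the authors aligned reads with Bowtie2 2.2.0, estimated expression with RSEM 1.2.17 and normalised for GC content with EDASeq 2.0.0. The methods name a mouse (mm10) Ensembl transcriptome and the notes list mm10 and hg19, while the gene names and identifiers of the table are human, so its build is not settled. The deposited values are a normalised score, in whole numbers that are not counts, which the authors made by that GC normalisation. They have nearly the same distribution in every library, so no count model and no test was used.

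Genes were taken by name from all 12125 rows, changes were computed as differences of log2(value + 1), and a call needed a difference of 1 and a larger value of at least 50, with Python 3.11.15, numpy 2.4.6 and pandas 2.3.3. The calling code was tested on simulated data without noise, in which the planted changes lay beyond the 2-fold limit. Such a test checks the code and not the error of single libraries. The members, the gene lists and the comparisons were chosen with earlier results of these data known. In each complex the 2 largest rises and falls from day 0 to day 21, all paralogous subunits, all of complex II and any call between days 9 and 11 (there was none) are named with every value. Alternatives were other pseudocounts, thresholds, scaling, gene sets and days. The values of 1 subunit gene and of 1 gene of the other lists are not reported here by name.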

Additional observations from a re-analysis of the deposited data

How the results depend on the processing

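A change was taken as moved when it differed by more than 0.21, the standard deviation of the members' differences between days 9 and 11, and a count when it differed by over 1.5 times. Of 395 recomputed results 356 did not move by these limits. A reversal was looked for only where the reported change was at least 1 in size, which few were, and none was found. Counts could not reverse. The limit for changes is the spread of single genes and is wide for a median. Of the 299 recomputed changes 253 lay within 0.1 of the reported one, and 7, none of them of a called size, had the opposite sign. Counts of members called from day 0 to 3, 3 to 13, 13 to 21 and 0 to 21 followed the threshold. At 1.5-fold they were 2, 8, 1 and 2 higher and 9, 11, 31 and 41 lower, with 2 lower from day 9 to 11. At 4-fold 0, 0, 0 and 3 were lower, and from day 3 to 13 0 were higher. With no minimum value 2 were lower from day 0 to 3 and 1 higher from day 13 to 21. With a larger value of at least 200, 0, 2, 3 and 14 were lower and 1 was higher from day 3 to 13. Median-of-ratios scaling gave 4 lower from day 13 to 21, 14 lower from day 0 to 21, and 1 higher there.

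With days 2 and 11 in place of 3 and 13, 0 members were lower from the start, 1 was higher in the middle span and 3 were lower in the last. The medians then were -0.28 for the members in the last span, and -0.25 for complex I, 0.38 for complex II, -0.05 for complex IV and -0.35 for complex V. In the middle span complexes II and V had -0.05 and -0.19, and in the first span complexes II and III had -0.13 and -0.37. The size of the last step thus depended on the day 13 library. The mean in place of the median gave -0.34 for complex II from day 0 to 3, 0.05 for complex II and -0.82 for complex V from day 0 to 21. No paired analysis was possible because each day has 1 library, and leaving out a replicate was not possible for the same reason. The table keeps no depth for each library, so no counting error can be given.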
